A study of Rattus norvegicus with 6 samples.

Results

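The genes described here are 10 genes that mark fat cells: the secreted products Adipoq, Cfd and Lep, the lipid droplet and fat metabolism genes Plin1, Lipe, Fabp4 and Pck1, the fat cell transcription factor Pparg, and the brown fat genes Ucp1 and Cidea. They were chosen by symbol, and 9 of the 10 had a row among the 15388 genes of the count tables. Fabp4, the fatty acid binding protein of fat cells, was not analysed here. Thyroids of adult Sprague-Dawley rats were compared between non-pregnant animals (NP) and animals on day 18 of pregnancy (late pregnancy, LP), with 3 RNA-seq samples in each group. The day on which a vaginal plug was found counted as day 1, and no other treatment or allele is given for either group. The design asks how gene expression in the whole maternal gland differs between LP and NP.

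White fat cells store triglyceride in a single large droplet coated by perilipin, release it as fatty acids when lipases are activated by adrenergic signals, and secrete hormones such as adiponectin and leptin. Brown fat cells carry many small droplets and mitochondria, and they make heat through uncoupling protein 1. The thyroid lies on the trachea, close to strap muscle, parathyroid tissue and fat of the neck, and fat cells can also lie within its capsule and stroma. In RNA of a whole gland, fewer cells of a type and less RNA per cell cannot be told apart.

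The tables held between 2752144 and 3449857 counted reads per sample. A level of 3 reads, the smallest taken as detectable, was 0.870 to 1.09 CPM (counts scaled to the library total) by sample, with no error but that of counting taken into account. The thyroid hormone precursor thyroglobulin took between 22.9% and 24.5% of the reads. In both groups replicates 2 and 3 were as alike as repeated counting of 1 library would give (chi-square per degree of freedom 1.02 in NP and 0.995 in LP, where 1 is pure counting noise), so their average entered each mean ± SD as a single sample, and n was 2. Replicate 1 stood apart from them in both groups (3.70 to 4.11). The 5 smooth muscle markers other than Des summed to 264 CPM in NP replicate 1 and 203 CPM in LP replicate 1. In replicates 2 and 3 of either group they summed to 1571 to 1678 CPM. Of the 5, 0 were called between the groups, against 15.3% of all genes tested called higher in LP and 11.7% lower. Their 95% intervals were wide (log2 fold change -1.23 to 1.13 for Myh11 and -0.23 to 0.91 for Smtn). The 0 calls therefore do not show that the groups are alike. Des, which encodes desmin of smooth and skeletal muscle, rose in LP with the skeletal muscle markers (log2 fold change 3.08, edgeR adjusted p = 8e-07), and it was set apart, like the stromal genes named next, after the values were seen. The collagen genes Col1a1 and Col3a1 were also lower in replicate 1 of both groups, at 304 and 529 CPM in NP replicate 1 against 892 and 815 CPM in NP replicate 2, while other stromal markers such as Lum (62.7 to 63.6 CPM in NP) were not. The sum of the skeletal muscle markers differed between the groups themselves, at 23.9 to 74.7 CPM in NP and 4682 to 4975 CPM in LP. Acta1, a marker of that list, did not (log2 fold change 0.11, edgeR adjusted p = 0.93). It had 0, 166 and 144 reads over the NP samples and 0, 186 and 185 over those of LP. In NP replicate 2 it gave 54.4 CPM of the sum of 74.7 CPM. The protocol counts 3 rats per group but ties no sample to an animal, so the p-values measure the spread between these samples, which may be technical.

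The fat cell genes as a group were present in every thyroid sample at a like level. The 9 genes summed to 196, 192 and 189 CPM over replicates 1 to 3 of NP, and to 213, 190 and 197 CPM over those of LP, so the groups overlapped. The groups were tested against each other with the quasi-likelihood method of edgeR, with p-values adjusted over all genes tested (Benjamini-Hochberg). Of the 9 genes, 7 passed the filter on low counts, and 0 of these 7 had an adjusted p-value below 0.05 (0 also had an unadjusted p-value below 0.05, and DESeq2 called 0 as well), while 15.3% of the 11738 genes tested were called higher and 11.7% lower. Groups that did not overlap were found for 0 of the 7, against 21.1% of genes tested with LP above NP and 40.1% in either direction. Their log2 fold changes were positive for 4 genes and negative for 3, with a median of 0.10, and the median over all genes tested was -0.0089. The other genes, Ucp1 and Lep, were below the filter and were taken from the same test on all 15388 genes, of which 11.8% were called higher, 8.85% lower and 20.7% in either direction. Ucp1 alone passed that test, lower in LP and by more than 2-fold, as did 0.559% of all genes in that direction and 4.4% in the other. For 6 of the 9 genes the 95% interval of the change lay within 2-fold in either direction, and for Lep, Cidea and Ucp1 it reached beyond.

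**Figure D1:**
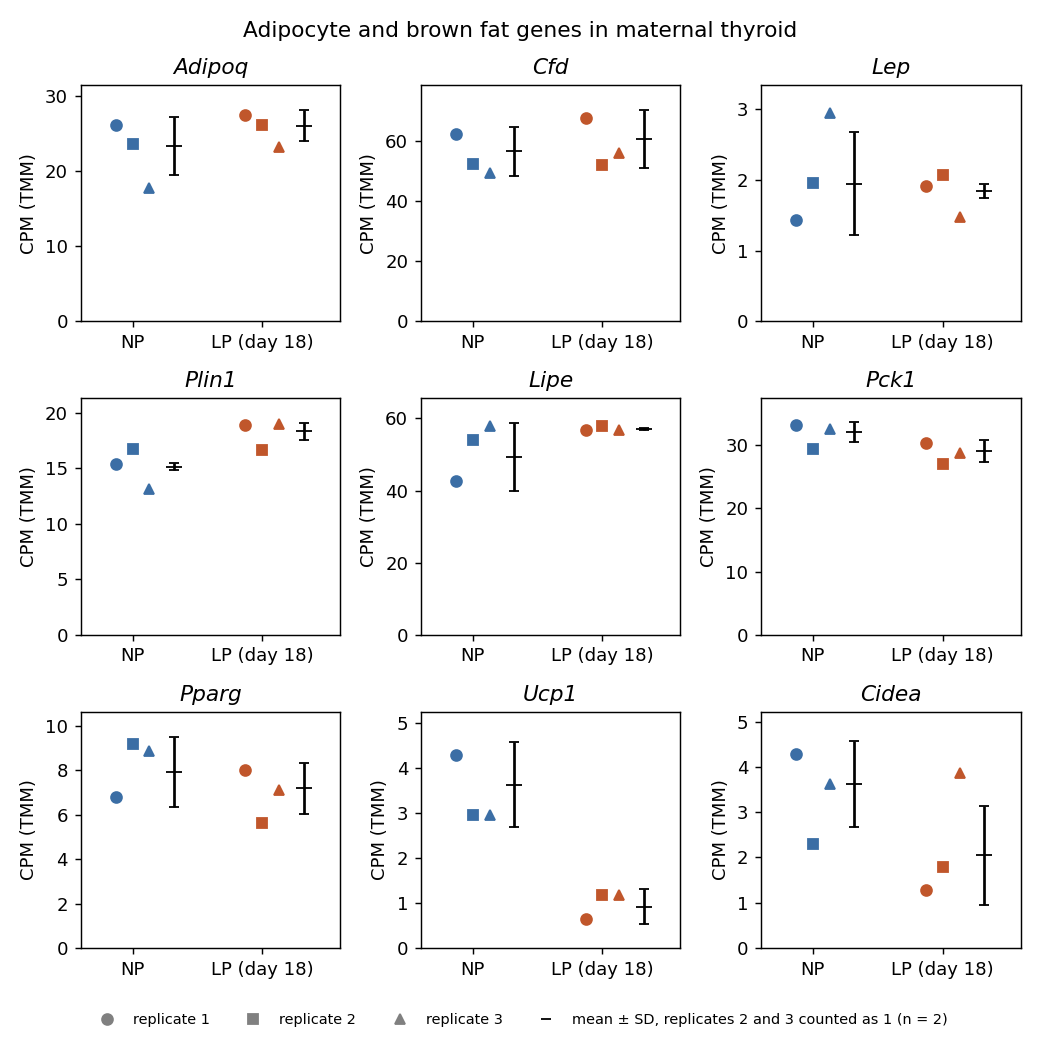
Level of each of the 9 measured fat cell genes in CPM (y axis, TMM normalization, from 0) in the 3 NP and 3 LP samples; symbols mark the replicate, and bars the mean ± SD with replicates 2 and 3 counted as 1 sample (n = 2). The samples of NP and LP overlap for 8 genes, and for Ucp1 every LP sample lies below every NP sample.

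Among the secreted products, Adipoq (ENSRNOT00000089988) encodes adiponectin, a hormone made almost entirely by fat cells that raises insulin sensitivity. It had 73, 72 and 54 reads in replicates 1, 2 and 3 of NP and 86, 88 and 78 in those of LP, a level of 23.4 ± 3.8 CPM (SD, n = 2) against 26.0 ± 2.0 CPM. NP replicates 1 and 2 lay within the range of LP, and the log2 fold change was 0.19 (standard error 0.15, 95% interval -0.12 to 0.50, edgeR adjusted p = 0.383). An increase or decrease of 2-fold lay outside that interval.

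The promoter of Adipoq is shown as that of a fat cell gene whose level did not pass the test, for comparison with the promoter of Ucp1 given with that gene. The sequences cover 250 bases before to 50 after the RefSeq start site on the GRCr8 build, another build than the rn5 of the counts, and 8 of the 10 genes were matched by symbol. Capitals would mark a match to 1 of 5 motifs searched on both strands: AGGTCA (the half-site of nuclear receptors), DR1 (that half-site repeated in the same direction with 1 base between, as bound by PPARG with RXR), TTGCNNAA (a site of C/EBP type), TATAAA and GGGCGG. The Adipoq window at chr11:91240120-91240419, minus strand, held none of these letters:
Adipoq: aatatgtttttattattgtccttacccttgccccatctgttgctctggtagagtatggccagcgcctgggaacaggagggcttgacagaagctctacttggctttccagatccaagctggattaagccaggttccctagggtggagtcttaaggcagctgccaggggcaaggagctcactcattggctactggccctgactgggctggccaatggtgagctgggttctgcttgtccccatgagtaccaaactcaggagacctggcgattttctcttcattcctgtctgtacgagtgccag

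Cfd (ENSRNOT00000015029) encodes adipsin, a complement protease secreted by fat cells. It had 174, 159 and 150 reads over the NP samples and 211, 175 and 188 over those of LP, a level of 56.4 ± 8.2 CPM (SD, n = 2) against 60.6 ± 9.6 CPM, and replicate 1 was the highest sample of either group. Its log2 fold change was 0.10 (standard error 0.11, 95% interval -0.13 to 0.32, edgeR adjusted p = 0.55), and it turned to -0.020 without LP replicate 1. The groups overlapped, and the difference between replicates of 1 group was as large as that between the groups. The 5 other genes whose log2 CPM followed Cfd most closely over the 6 samples, of 10441 with a mean of at least 20 reads, were LOC100911730, Xpr1, LOC100365556, Zmat5 and Acad9 (Pearson r from 0.975 to 0.989), all with the highest level of their group in replicate 1. The points of this comparison include pairs of samples that differed only by sampling noise.

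Lep (ENSRNOT00000071926) encodes leptin, the hormone that reports fat stores to the brain. It had 4, 6 and 9 reads over the NP samples and 6, 7 and 5 over those of LP, which is between 1.43 and 2.95 CPM and close to the smallest level that the depth can show. The groups overlapped, with NP replicate 3 the highest sample. Its log2 fold change was -0.23 (standard error 0.46, 95% interval -1.19 to 0.74, edgeR adjusted p = 0.806 without the filter), with a value of 0.09 without NP replicate 3, so a difference was not detectable at this depth.

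Of the genes of stored fat, Plin1 (ENSRNOT00000082164) encodes perilipin 1, the coat protein of the fat cell's lipid droplet that guards it from lipases. It had 43, 51 and 40 reads over the NP samples and 59, 56 and 64 over those of LP, a level of 15.1 ± 0.32 CPM (SD, n = 2) against 18.3 ± 0.74 CPM. NP replicate 2, at 16.7 CPM, lay just above the lowest LP sample at 16.6 CPM. The log2 fold change was 0.27 (standard error 0.16, 95% interval -0.07 to 0.60, edgeR adjusted p = 0.241).

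Lipe (ENSRNOT00000027910) encodes hormone-sensitive lipase, which cleaves diglycerides when fat is mobilized. It had 119, 165 and 176 reads over the NP samples and 178, 195 and 191 over those of LP, a level of 49.2 ± 9.5 CPM (SD, n = 2) against 57.1 ± 0.27 CPM. NP replicate 1 was the lowest sample at 42.5 CPM, and the other NP samples lay at 54.0 and 57.8 CPM, in or near the LP range of 56.7 to 57.8 CPM. The log2 fold change was 0.15 (standard error 0.098, 95% interval -0.06 to 0.35, edgeR adjusted p = 0.311).

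Pck1 (ENSRNOT00000031586) encodes cytosolic phosphoenolpyruvate carboxykinase, which supplies glycerol for new triglyceride in fat cells and glucose in the liver. It had 93, 90 and 99 reads over the NP samples and 95, 91 and 97 over those of LP, a level of 32.1 ± 1.6 CPM (SD, n = 2) against 29.1 ± 1.7 CPM. The groups overlapped, and the log2 fold change was -0.14 (standard error 0.11, 95% interval -0.38 to 0.09, edgeR adjusted p = 0.409).

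Pparg (ENSRNOT00000082969) encodes the nuclear receptor that drives fat cell differentiation and binds DNA together with RXR. It had 19, 28 and 27 reads over the NP samples and 25, 19 and 24 over those of LP, a level of 7.90 ± 1.6 CPM (SD, n = 2) against 7.18 ± 1.1 CPM. The groups overlapped, and the log2 fold change was -0.27 (standard error 0.24, 95% interval -0.77 to 0.23, edgeR adjusted p = 0.456).

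The brown fat genes were measured with few reads. Ucp1 (ENSRNOT00000004900) encodes the mitochondrial uncoupling protein that defines brown and beige fat cells. It had 12, 9 and 9 reads over the NP samples and 2, 4 and 4 over those of LP. This is 30 reads against 10 over the groups, or 3.62 ± 0.95 CPM (SD, n = 2) against 0.913 ± 0.39 CPM. LP replicate 1, at 0.639 CPM, lay below the 3 reads taken as the smallest detectable level, and the other LP samples lay just above it. Every LP sample lay below every NP sample, a separation towards lower values that 15.9% of all genes showed (34.4% in either direction). The log2 fold change was -1.70 (standard error 0.47, 95% interval -2.68 to -0.73, edgeR adjusted p = 0.0116 without the filter), or 3.26-fold lower in LP with an interval of 1.66 to 6.40. The exact permutation test on the CPM values (two-sided) gave p = 0.1, the smallest that 3 against 3 samples allow, and it took all 6 samples as independent although replicates 2 and 3 were as alike as 1 library.

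The call of Ucp1 rested on these few reads and held in part of the settings. The adjusted p-value was 0.0263 with the reads of replicates 2 and 3 added together and 0.0137 with the replicate number as a block. It was 0.114 with DESeq2, 0.055 without NP replicate 1, 0.0531 without LP replicate 1 and 0.0606 without replicate 3 of both groups, with log2 fold changes of -1.75, -1.52, -1.48 and -1.93. Over 14 alternatives the adjusted p-value ranged from 0.00544 to 0.114, and the direction was the same in all 14. Counted against Adipoq in the same library, there were 16.4, 12.5 and 16.7 reads of Ucp1 per 100 reads of Adipoq over the NP samples, and 2.33, 4.55 and 5.13 over those of LP. The ratios of LP all lay below those of NP. With Ucp1 reads already separated and Adipoq reads higher in every LP sample, this was fixed in advance and adds no support.

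The promoter of Ucp1 is shown as that of the gene whose level passed the test. It lies at chr19:41721372-41721671, minus strand (GRCr8, RefSeq), and capitals mark the TATAAA found 30 bases before the start site, a motif held by 14.2% of the 33469 promoter windows of this length:
Ucp1: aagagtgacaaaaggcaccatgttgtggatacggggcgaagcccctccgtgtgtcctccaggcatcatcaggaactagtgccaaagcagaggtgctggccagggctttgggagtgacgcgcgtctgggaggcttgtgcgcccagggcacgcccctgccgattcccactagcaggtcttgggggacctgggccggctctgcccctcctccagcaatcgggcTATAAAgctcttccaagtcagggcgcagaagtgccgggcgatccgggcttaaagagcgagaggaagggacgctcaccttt

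None of the other motifs was found in the Ucp1 window. Among the other matched genes, AGGTCA was found in Pck1 alone (16.2% of all windows), TTGCNNAA in Plin1, Lep and Pparg (10.6%) and GGGCGG in Lep, Cfd and Cidea (33.1%). The exact DR1 was found in 0 of the 8 windows and in 0.0538% of all windows. These matches describe letters of short windows and say nothing on binding.

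Cidea (ENSRNOT00000024968) encodes a lipid droplet protein that is abundant in brown fat, where it helps droplets to fuse. It had 12, 7 and 11 reads over the NP samples and 4, 6 and 13 over those of LP, a level of 3.62 ± 0.95 CPM (SD, n = 2) against 2.05 ± 1.1 CPM. LP replicates 1 and 2 lay below the NP samples, and LP replicate 3 lay at 3.86 CPM within their range. The log2 fold change was -0.53 (standard error 0.43, 95% interval -1.43 to 0.38, edgeR adjusted p = 0.411), and -1.12 without LP replicate 3 (adjusted p = 0.124). Whether Ucp1 and Cidea differ in their change was not tested.

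**Figure D2:**
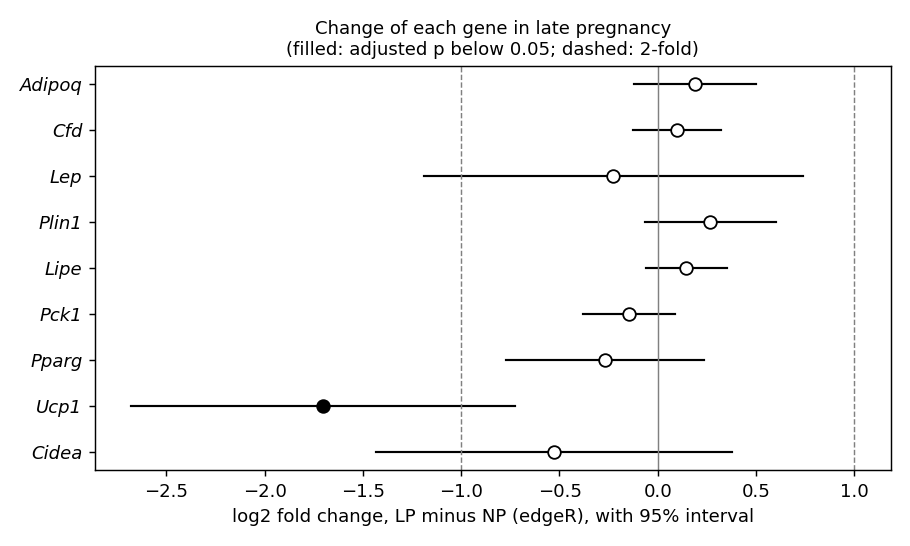
Log2 fold change of each gene (x axis, LP minus NP, edgeR) with its 95% interval; filled points have an adjusted p-value below 0.05, and dashed lines mark a 2-fold change. Ucp1, at -1.70, is the only filled point, and the intervals of Lep, Cidea and Ucp1 pass a dashed line.

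The wider machinery of fat was then examined in 7 lists of genes that fat cells use, many of them also used by other cells. Past the filter on low counts were 80 genes. Of these 80 genes, 33 were higher in LP (41.2%, against 15.3% of all genes tested) and 7 were lower (8.75%, against 11.7%), with a median log2 fold change of 0.26 against -0.0089 over all genes tested. With the fold change also above 2, 13 were higher and 0 lower, against 4.9% and 0.537% of all genes tested. Most skeletal muscle markers were also higher in LP. Of 18 markers 13 had a row, and 10 of 11 past the filter were higher, with a median log2 fold change of 7.94. Their part in these results was not tested. Tnnc2, the troponin C of fast muscle fibres, had 22, 14 and 26 reads over the NP samples and 4554, 4532 and 4641 over those of LP, while Myh1 and Mylpf, a myosin heavy and a myosin light chain of fast fibres, were at 0 reads in every NP sample and had 105 to 119 and 9 to 15 reads in LP.

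Of 11 genes of lipid droplet coats and lipolysis, 5 rose in LP (45.5%, against 15.3% of all tested) and 1 fell (9.09%, against 11.7%). Plin4, a perilipin found in fat and muscle, had 23, 27 and 25 reads over the NP samples and 399, 426 and 412 over those of LP (8.37 ± 0.22 against 126 ± 2.3 CPM, SD, n = 2), a log2 fold change of 3.89 (standard error 0.095, edgeR adjusted p = 2.12e-15). Fitm1, a protein of droplet formation known from muscle, had 3, 2 and 1 reads over the NP samples and 103, 103 and 94 over those of LP, with a fitted log2 fold change of 5.41 (standard error 0.28, edgeR adjusted p = 9.26e-11). In both, every LP sample lay above every NP sample, while the groups overlapped for Plin1 (log2 fold change 0.27). Bscl2, which encodes seipin, fell by 0.32 on the log2 scale (edgeR adjusted p = 0.0115), a call lost without LP replicate 3 (adjusted p = 0.06) or replicate 3 of both groups (0.0817) and with DESeq2 (adjusted p = 0.119).

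Of 14 genes of fatty acid uptake and triglyceride synthesis, 7 rose (50%, against 15.3% of all tested) and 1 fell (7.14%, against 11.7%). Lpl, the lipase that frees fatty acids from blood lipoproteins in fat and muscle, had 118, 147 and 132 reads over the NP samples and 353, 381 and 416 over those of LP, with a fitted log2 fold change of 1.38 (standard error 0.075, edgeR adjusted p = 1.6e-10). Gpd1, which makes glycerol phosphate, rose from 121 ± 8.7 to 295 ± 8.7 CPM (SD, n = 2), and Acsl1, which activates fatty acids, from 91.8 ± 1.4 to 218 ± 11 CPM, with log2 fold changes of 1.30 and 1.22. In all 3 genes no NP sample reached an LP sample.

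Of 9 fatty acid synthesis genes, 6 rose (66.7%, against 15.3% of all tested) and 1 fell (11.1%, against 11.7%), each by less than 2-fold. Scd1, the desaturase that makes oleate, rose by a log2 fold change of 0.99 (standard error 0.060, edgeR adjusted p = 8.19e-10), and Srebf1, the transcription factor of lipid synthesis, by 0.62 (edgeR adjusted p = 2.18e-07). Thrsp, a thyroid hormone responsive gene of lipogenic tissues, fell by 0.33 on the log2 scale (edgeR adjusted p = 0.000783). The desaturase Scd2 was at 264 ± 8.0 CPM (SD, n = 2) in NP and 261 ± 9.8 CPM in LP, with a fitted log2 fold change of -0.04 (edgeR adjusted p = 0.624).

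Of 10 genes of other adipokines and secreted proteins, 1 rose and 1 fell. This share of 10% in each direction lay near that of all genes tested (15.3% higher and 11.7% lower). Nampt, an enzyme of NAD synthesis also known as visfatin, rose by a log2 fold change of 0.53 (standard error 0.11, edgeR adjusted p = 0.00142). Agt, which encodes angiotensinogen, had 40, 31 and 35 reads over the NP samples and 24, 16 and 19 over those of LP, with a fitted log2 fold change of -0.99 (edgeR adjusted p = 0.00443, and 0.0564 without replicate 3 of both groups). Sfrp5, a secreted inhibitor of WNT signalling, was at 691 ± 42 CPM (SD, n = 2) in NP and 628 ± 28 CPM in LP (log2 fold change -0.13, edgeR adjusted p = 0.0633). The block on replicate numbers brought Sfrp5 to an adjusted p of 3.04e-05 and the count of lower genes to 2, as did leaving out NP replicate 2 (adjusted p of Sfrp5 0.0388) or LP replicate 1 (0.0207). Nnat, a small membrane protein of adipogenesis, had a log2 fold change of 0.07, and -0.0072 without NP replicate 2.

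Of 12 transcription factor genes of fat cells, 5 rose (41.7%, against 15.3% of all genes tested) and 1 fell (8.33%, against 11.7%). Cebpb, an early factor of adipogenesis, had 75, 172 and 142 reads over the NP samples and 196, 271 and 256 over those of LP, with replicate 1 the lowest of both groups. Its log2 fold change was 0.74 (standard error 0.16, edgeR adjusted p = 0.00188, and 0.0898 with DESeq2). Ppargc1b, a coactivator of mitochondrial genes in brown fat and muscle, rose by a log2 fold change of 1.67 (standard error 0.23, edgeR adjusted p = 2.37e-05).

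Of 13 genes of insulin and adrenergic signalling, 4 rose (30.8%, against 15.3% of all genes tested) and 2 fell (15.4%, against 11.7%). Irs1, a substrate of the insulin receptor, rose by 0.65 on the log2 scale (edgeR adjusted p = 0.0131), but its adjusted p was 0.0649 without NP replicate 3, 0.068 without LP replicate 3, 0.193 without replicate 3 of both groups and 0.0934 with DESeq2. Adipor1, a receptor of adiponectin, did not pass the test (log2 fold change 0.10, edgeR adjusted p = 0.228). Ptrf, which encodes a caveolar coat protein abundant in fat, did not pass it either (0.14, adjusted p = 0.294), though it did with the replicate block (adjusted p = 0.00258).

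Of 11 further brown fat genes past the filter, 5 rose (45.5%, against 15.3% of all genes tested) and 0 fell (against 11.7%). Tbx1, a transcription factor used as a marker of beige fat that also patterns head muscle, had 31, 31 and 23 reads over the NP samples and 133, 115 and 138 over those of LP, with a fitted log2 fold change of 2.03 (standard error 0.16, edgeR adjusted p = 2.19e-08). P2rx5, an ATP-gated channel found on brown fat cells and in muscle, had 5, 2 and 5 reads over the NP samples and 14, 23 and 16 over those of LP, with a fitted log2 fold change of 1.96 (standard error 0.40, edgeR adjusted p = 0.00126). Acaa2, an enzyme of fatty acid oxidation, rose by 0.66 on the log2 scale (edgeR adjusted p = 1.25e-07). Prdm16, a transcription factor of brown fat identity, had 196, 205 and 181 reads over the NP samples and 228, 237 and 192 over those of LP, with overlapping groups and a log2 fold change of 0.02 (standard error 0.093, edgeR adjusted p = 0.882), which turned to -0.048 without NP replicate 3 or LP replicate 1 and to -0.017 without LP replicate 2. With the replicate block 1 gene of this list was lower, and likewise without NP replicate 2.

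Genes known from both brown fat and muscle were for the most part higher in LP. Of 11 past the filter, 10 were higher in LP and 0 lower (90.9%, against 15.3% of all genes tested), 6 of them with a fold change above 2, and the median log2 fold change was 1.06. Cox8b, a respiratory subunit of brown fat, heart and skeletal muscle, had 8, 4 and 2 reads over the NP samples and 604, 579 and 572 over those of LP, with a fitted log2 fold change of 6.79 (standard error 0.17, edgeR adjusted p = 2.2e-15). Plin5, the perilipin of oxidative tissues, had 1, 1 and 0 reads over the NP samples and 35, 51 and 47 over those of LP, and Hadha, of mitochondrial fatty acid oxidation, rose by 0.85 on the log2 scale (edgeR adjusted p = 1.34e-08). The gene not called was Ucp2, a relative of Ucp1 with wide expression, at 414 ± 40 CPM (SD, n = 2) in NP and 364 ± 0.86 CPM in LP, with a fitted log2 fold change of -0.15 (edgeR adjusted p = 0.0613). The replicate block gave Ucp2 an adjusted p of 0.000229, and leaving out NP replicate 3 gave 0.0311.

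**Figure D3:**
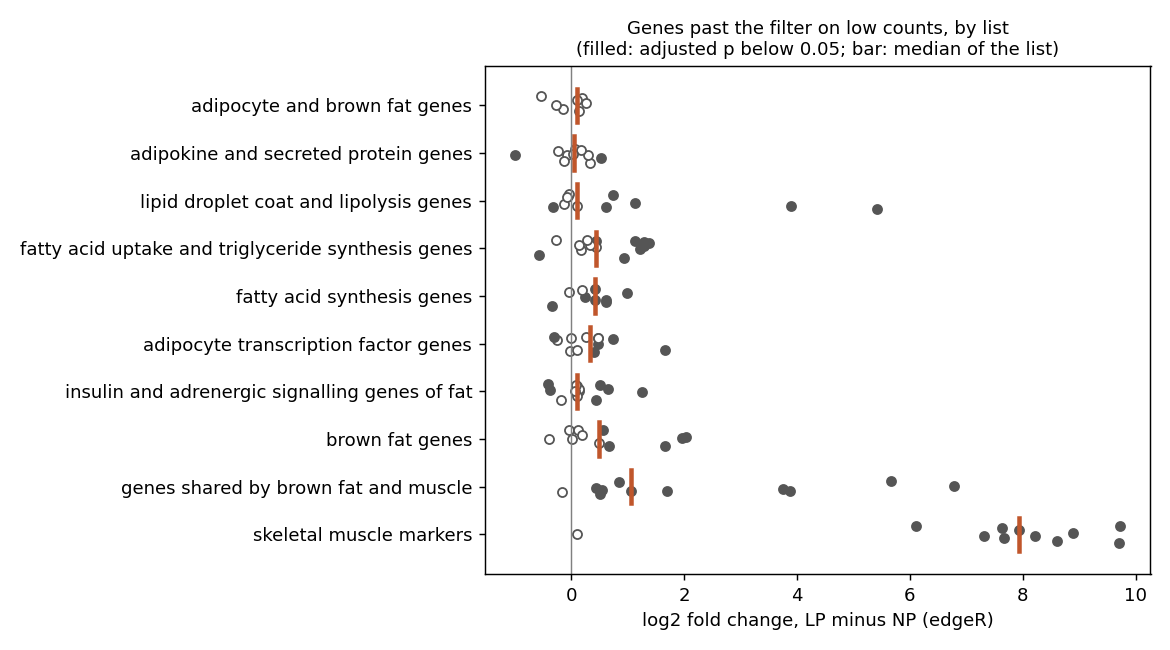
Log2 fold change (x axis, LP minus NP, edgeR) of every gene past the filter on low counts in the fat lists and in the skeletal muscle markers; filled points have an adjusted p-value below 0.05, and the bar is the median of the list. The 7 fat cell genes past the filter lie between -0.53 and 0.27 with no filled point, while the genes shared by brown fat and muscle have a median of 1.06 and the muscle markers of 7.94.

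Markers of other cell types that lie near fat were summed in the same way. Of 10 stromal and preadipocyte genes past the filter, 0 were higher and 1 was lower in LP (of all genes tested, 15.3% were higher and 11.7% lower), and their sum was 1520 to 2448 CPM in NP and 1759 to 2737 CPM in LP. Endothelial genes had 4 of 7 lower and 0 higher, with a median log2 fold change of -0.23 and sums of 567 to 588 CPM in NP and 481 to 505 CPM in LP. Macrophage genes had 0 of 9 called, and airway epithelium genes had 3 of 4 higher. The sum of the fat cell genes stayed within 189 to 213 CPM over all samples, and Cfd, Lipe and Pck1 had the most reads in it. In the same samples, smooth muscle markers other than Des ran from 203 to 1678 CPM and skeletal muscle markers from 23.9 to 4975 CPM. Ucp1 and Cidea, at no more than 4.29 CPM in any sample, weigh little in the sum of the fat cell genes.

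**Figure D4:**
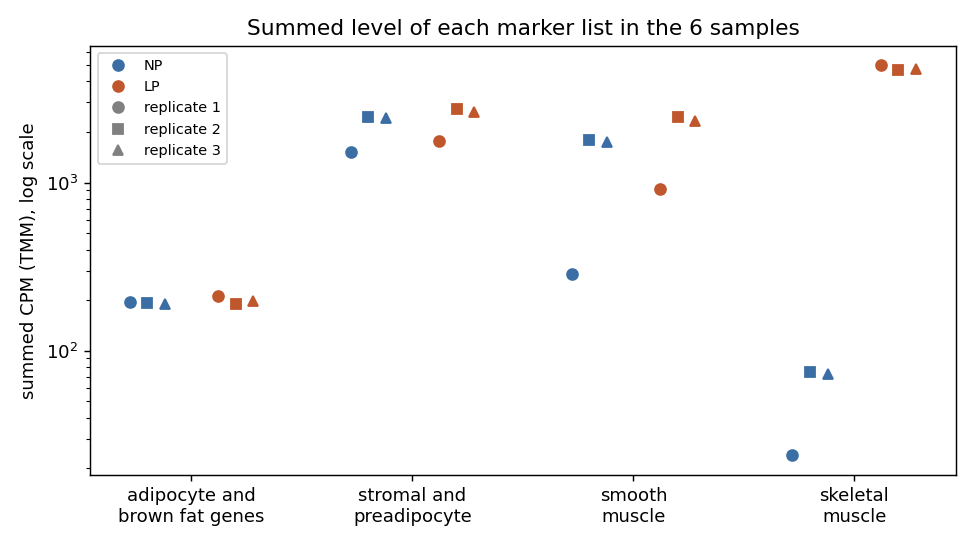
Summed CPM (y axis, log scale, TMM normalization) of the 9 fat cell genes and of 3 marker lists in the 6 samples, with colours for NP and LP and symbols for the replicate. The fat cell genes lie between 189 and 213 CPM in all 6 samples, the sums of the stromal and smooth muscle markers (the latter with Des, which rose in LP) are lowest in replicate 1 of each group, and the skeletal muscle markers are at 23.9 to 74.7 CPM in NP and 4682 to 4975 CPM in LP.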

How the data were processed

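Polyadenylated RNA of 6 thyroid samples was sequenced. The authors mapped reads to rn5 with TopHat 1.4.0, counted them with HTSeq-count on Ensembl gene models and deposited raw read counts; how 1 transcript stood for each gene is not given in the sources used here. Reads of overlapping genes may be lost in such counting. LP was compared with NP in R 4.3.3 with edgeR 4.0.16 (quasi-likelihood test, TMM, default filter, no block, Benjamini-Hochberg adjustment over 11738 genes). Genes below the filter were taken from the test on all 15388 genes. Standard errors were the absolute log2 fold change over the square root of F. Levels are CPM with TMM. Lengths were not used, so levels of different genes were not compared.

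Alternatives were RLE size factors, TMM without muscle markers and changed genes, no filter, a mean of at least 50 reads, DESeq2 1.42.0, the replicate block, replicates 2 and 3 summed, and samples left out. Deviations from group means correlated between same-numbered samples (0.500, 0.227 and 0.197). Replicate 1 stood apart in both groups, and correlations of differently numbered samples were not computed, so these values cannot show pairing by number. All reported calls come from the fit without the block, and the blocked fit was an alternative. The genes named were those of the fat list, the 2 with the highest level and the 2 with the largest called change of each further fat list, and the muscle genes with the highest level or with 0 reads in a group; 2 genes that this rule names are not reported here. Members and lists were chosen with earlier results of these data known. The steps were tested on simulated data. Changes were placed there only in genes with more reads than Ucp1, Cidea or Lep had, so calls at such low counts were not covered.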

Additional observations from a re-analysis of the deposited data

How the results depend on the processing

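Of the fat cell genes, 0 were higher in LP under all 15 alternatives, and the count lower (Ucp1) was 1 except for 0 with a mean of at least 50 reads (Ucp1 and 3 others not tested), 0 with DESeq2 (Ucp1 log2 fold change -1.75) and 0 to 1 with samples left out (Ucp1 from -1.93 to -1.48, lost without NP replicate 1, LP replicate 1 or replicate 3 of both groups). The counts with a fold change above 2 were the same, 0, 0 and 0 to 1. With samples left out, Lep ran from -0.43 to 0.21, Cfd from -0.020 to 0.20, Prdm16 from -0.048 to 0.12 and Nnat from -0.0072 to 0.13. Over the 7 fat lists, between 28 and 38 genes were higher and between 4 and 9 lower under all alternatives (4 to 9 with samples left out). DESeq2 gave 703 lower genes of all tested, 0 lower genes of lipid droplets, 0 lower and 3 higher transcription factors. The filter of 50 reads left 286 genes higher and 29 lower past 2-fold, 0 lower adipokines and 3 higher brown fat genes. The replicate block (pairing by number) gave 2 lower adipokines, 1 lower brown fat gene and 1 lower gene shared with muscle, and with replicates 2 and 3 summed it gave 2 and 1 for the first and the last. With samples left out, lower genes of all tested ran from 806 to 1273, of lipid droplets from 0 to 1, of fatty acid uptake from 0 to 1, of adipokines from 0 to 2, of transcription factors from 0 to 1, of brown fat from 0 to 1 and of the shared list from 0 to 1. The block changed no call of the fat cell genes. Causes were not tested. Depth limits Ucp1, Cidea and Lep, with 2 to 13 reads per sample.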

Other observations

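The uncoupling proteins, chosen here after their values were seen, differed from each other. Ucp1 had 9 to 12 reads in the NP samples and 2 to 4 in LP, while Ucp3, the form of skeletal muscle and brown fat, had 2, 4 and 4 reads over the NP samples and 61, 45 and 48 over those of LP, with a fitted log2 fold change of 3.75 (standard error 0.33, edgeR adjusted p = 1.02e-07). Slc2a4, the insulin-regulated glucose transporter of fat and muscle, had 30, 33 and 38 reads over the NP samples and 538, 546 and 570 over those of LP, with a fitted log2 fold change of 3.88 (edgeR adjusted p = 7.65e-16).

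Of the brown fat list, 7 genes lay below the filter on low counts (those named here were chosen after their values were seen). They had 4 positive and 3 negative log2 fold changes, with 1 called higher and 0 lower (edgeR, without the filter). Of all genes in that test, 11.8% were called higher and 8.85% lower, so 1 of 7 higher lay near the share of all genes. The gene called was Zic1, a transcription factor of brown fat and of other embryonic derivatives, which was at 0 throughout NP and had 3, 7 and 6 reads in the LP samples (edgeR adjusted p = 0.00423 without the filter). Among those with negative values, Fgf21, a secreted metabolic hormone, had 2 to 4 reads in NP and 2 in each LP sample (adjusted p = 0.566), and Cox4i2, a respiratory subunit, had 6 to 15 against 3 to 10 reads (adjusted p = 0.23). Adrb3, the adrenergic receptor of fat cells, had 2, 0 and 3 reads over the NP samples and 11, 6 and 5 over those of LP, and it did not pass the test (edgeR adjusted p = 0.0584 without the filter). These counts lie near the smallest level the depth can show.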
